A study of Gallus gallus with 5 samples.

Results

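KDR and LYVE1 are genes whose proteins sit on the surface of the endothelial cells that line the blood channels (sinusoids) of the liver. They were followed through the livers of 5 laying hens and are 2 of the 6286 entries of the deposited count table. The hens were broiler breeders, the parent stock of meat chickens, and 2 of them were fed ad libitum (FF), which were set against 3 hens on a restricted feed allowance (RF). Feeding groups began at 38 weeks of age. A further FF hen named in the extraction protocol was not analysed here. Liver RNA was sequenced with strand-specific libraries, 1 per hen. The table gives estimated counts per gene, here scaled by the trimmed mean of M values (TMM) to CPM (counts in each 1000000 of the scaled library). Both genes cleared the filter on low counts and so were 2 of 4309 genes tested. KDR and LYVE1 were chosen by their symbols with their FF and RF levels in these hens already known. Their difference between the groups is therefore given as a description, with no test. RNA from whole liver cannot tell fewer endothelial cells from less RNA of these genes per cell.

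KDR encodes a receptor tyrosine kinase, also called VEGFR2 or FLK1, that binds the vascular endothelial growth factor VEGFA. Its signal drives endothelial cells to divide, migrate and survive, and in chick and mouse embryos the receptor marks the precursors of blood and vessels. LYVE1 encodes a membrane receptor for hyaluronan, a long sugar polymer of the extracellular matrix. In mouse and human LYVE1 marks lymphatic endothelium, liver sinusoidal endothelium and some tissue macrophages. Sinusoidal endothelium forms the perforated lining between blood and hepatocytes and clears waste macromolecules from the blood, hyaluronan among them.

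Library totals ranged from 2666609 (FF2) to 4622392 (FF1) estimated counts. FF2, the shallowest, also stood apart from the other hens on the first principal component, at 44.5 against -28.0 to -1.75, on an axis that held 50.7% of the variance. VTG1, a yolk protein vitellogenin made by the hepatocytes of laying hens, took 5.66% to 10.1% of the counts, so the samples held a product of laying hen liver. Of all genes tested, 0.0464% (BUB1 and AACS, neither of them in an endothelial list) passed an adjusted p of 0.05 by edgeR's quasi-likelihood test, and 1.83% did so by DESeq2. An unadjusted p under 0.05 was found for 9.35% of genes, 4.94% with FF lower and 4.41% with FF higher. The median log2 fold change of all genes, FF over RF, was 0.01.

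KDR lay about 2-fold lower in the livers of FF hens. It stood at 67.1 CPM in FF1 and 52.7 CPM in FF2, against 166 CPM in RF1, 121 CPM in RF2 and 80.9 CPM in RF3. Both FF hens lay below all 3 RF hens, a pattern that 13.9% of all genes tested shared. FF hens averaged 59.9 ± 10.1 CPM (SD, n = 2) and RF hens 123 ± 42.7 CPM (SD, n = 3), and the log2 fold change was -1.03 ± 0.36 (SE). That gap was not even over the RF hens. RF1 had 2.06 times the KDR level of RF3, which is as wide as the difference between the group means, and RF3 exceeded FF1 by a factor of only 1.21. These levels rest on 327 and 145 estimated counts in FF1 and FF2 and on 706, 411 and 346 in RF1, RF2 and RF3. The exact 95% Poisson intervals, which cover counting error alone, reached from 60.0 to 74.8 CPM in FF1 and from 72.6 to 89.8 CPM in RF3, so the intervals of these neighbouring hens overlapped. With RF1 left out the log2 fold change was -0.74, the smallest of any alternative, and with RF3 left out it was -1.25, the largest.

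LYVE1 lay lower in FF by nearly the same factor but followed another order among the RF hens. Its level was 8.20 CPM in FF1 and 6.91 CPM in FF2, against 10.8 CPM in RF1, 13.5 CPM in RF2 and 19.2 CPM in RF3. Both FF hens again lay below all 3 RF hens, and RF3, the lowest RF hen for KDR, was the highest for LYVE1. FF hens averaged 7.56 ± 0.92 CPM (SD, n = 2) and RF hens 14.5 ± 4.25 CPM (SD, n = 3), with a log2 fold change of -0.93 ± 0.39 (SE). RF1, the RF hen nearest to FF, exceeded FF1 by a factor of 1.32, while the RF hens spanned a factor of 1.77. LYVE1 was a shallow measurement, at 40 and 19 estimated counts in FF1 and FF2 and at 46, 46 and 82 in RF1, RF2 and RF3. The exact 95% Poisson interval of FF2 (4.16 to 10.8 CPM) and that of FF1 (5.86 to 11.2 CPM) both overlapped those of RF1 (7.93 to 14.4 CPM) and RF2 (9.89 to 18.0 CPM), and the interval of RF3 (15.2 to 23.8 CPM) lay above both FF intervals. Leaving out RF3 gave a log2 fold change of -0.67, and leaving out RF1 gave -1.10.

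**Figure D1:**
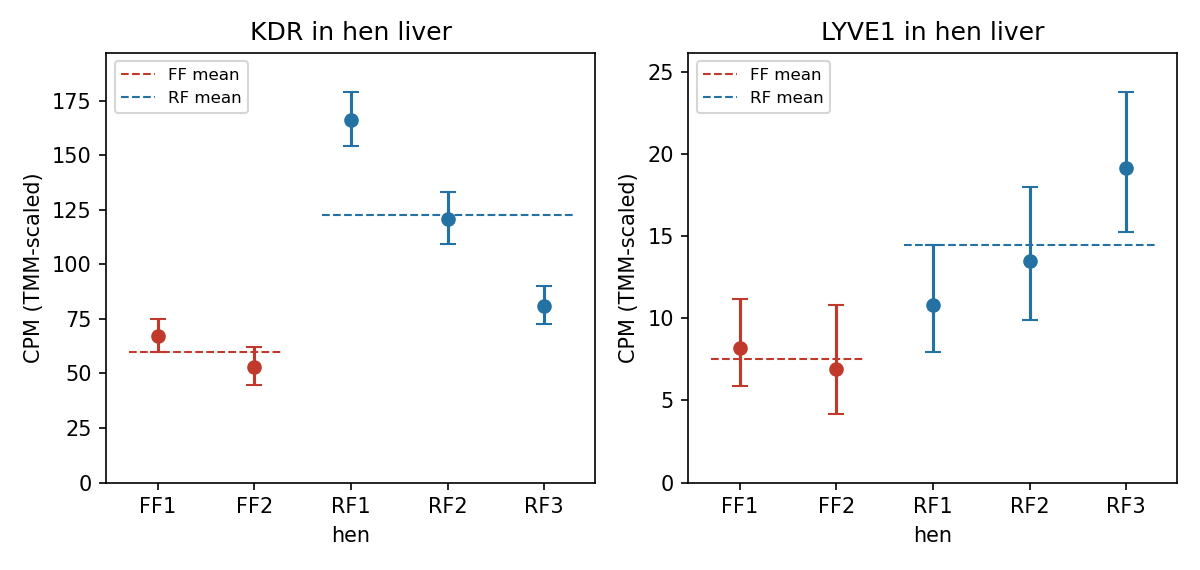
Levels of KDR (left) and LYVE1 (right) in each hen's liver, in TMM-scaled CPM on axes that start at 0; bars are exact 95% Poisson intervals of counting error, and dashed lines are the FF (red) and RF (blue) means. Both FF hens lie below the RF hens in both panels, but RF1 is the highest hen for KDR (166 CPM) and RF3 the highest for LYVE1 (19.2 CPM).

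The ratio of the genes within a hen, which does not depend on how libraries are scaled, separated the RF hens from each other more than it separated the feeding groups. There were 8.18 and 7.63 KDR counts per LYVE1 count in FF1 and FF2, against 15.3, 8.93 and 4.22 in RF1, RF2 and RF3. The FF ratios lay inside the RF range. As counts are not per length, this ratio says nothing about which transcript is more abundant. Over the 5 hens, the root mean square distance between the log2 CPM profiles of KDR and LYVE1, each centred on its own mean, was 0.58. By that distance LYVE1 ranked 1388 of the 4293 genes set beside KDR, and KDR ranked 1912 beside LYVE1, so neither was close to the other when set among all genes.

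Other blood vessel endothelial genes lay mostly lower in FF too, with a median nearer to 0 than KDR or LYVE1, and none was called. The list held 41 genes, of which 17 were in the table and 16 were tested, KDR and LYVE1 not being among them. Of these 16, 13 had a log2 fold change below 0, where 49.4% of all genes did, and their median was -0.39. With p-values adjusted over all genes, 0 of 16 passed by edgeR's quasi-likelihood test and DESeq2 called 0. By edgeR 1 of 16 had an unadjusted p under 0.05, where 9.35% of all genes did. Both FF hens lay below all RF hens in 1 of the 16, where 13.9% of all genes did. They lay above all RF hens in 2, where 13.1% of all genes did. Without FF2, 10 of the 16 lay below 0, and the median was -0.36. The list's mean centred log2 CPM was 0.0022 and -0.50 in FF1 and FF2, against 0.39, 0.28 and -0.17 in RF1, RF2 and RF3. Summed levels were 2198 and 1825 CPM in FF1 and FF2, against 2973, 2514 and 1788 CPM in RF1, RF2 and RF3. The groups overlapped by either measure, as RF3 lay below FF1. Both measures include TAL1 and HHEX, which cells other than endothelium also express, and were not taken without them. TAL1 stood at 127 CPM in FF1 and 31.8 CPM in RF3, and HHEX at 557 CPM in FF1 and 233 CPM in RF3.

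CDH5, the cadherin of endothelial cell junctions and a defining endothelial marker, stood at 85.5 CPM in FF1 and 143 CPM in FF2, against 141, 139 and 171 CPM in RF1, RF2 and RF3. FF1 alone lay low, and FF2 lay among the RF hens, so that the log2 fold change was -0.40 ± 0.31 (edgeR, adjusted p = 0.689). ENG, a co-receptor for transforming growth factor beta on endothelium, stood at 383 and 169 CPM in FF1 and FF2, against 584, 512 and 399 CPM in RF1, RF2 and RF3. It was the gene of this list with both FF hens below all RF hens (log2 fold change -0.85 ± 0.41, edgeR adjusted p = 0.568), though FF1 and RF3 were close and the value was -0.37 without FF2. ECE1, the protease that releases the vasoconstrictor endothelin and is made by other cells as well, had the smallest p of the list. Its levels were 349 and 289 CPM in FF1 and FF2, against 993, 777 and 336 CPM in RF1, RF2 and RF3 (log2 fold change -1.14 ± 0.47, edgeR adjusted p = 0.524). As with KDR, RF1 was the highest hen for ECE1 and RF3 the lowest RF hen, here below FF1.

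Of the transcription factors of endothelium, SOX18, ERG, ETS1, FLI1 and LMO2 lay below 0, and TAL1 and HHEX lay above it. SOX18, which acts in vessel and lymphatic development, lay at a log2 fold change of -0.68 ± 0.40, ERG, which maintains endothelial identity, at -0.50 ± 0.44, and its relatives ETS1 and FLI1 at -0.17 ± 0.27 and -0.11 ± 0.31. FLI1 changed sign without FF1 and without RF1. TAL1 and LMO2, partners in blood and endothelial precursors that red cell and thrombocyte precursors also express, lay at 0.18 ± 0.61 and -0.25 ± 0.39, and each changed sign when single hens were left out. HHEX, which hepatocytes express as well, was one of the genes with both FF hens above all RF hens, at 557 and 597 CPM in FF1 and FF2, against 465, 312 and 233 CPM in RF1, RF2 and RF3 (0.78 ± 0.35, edgeR adjusted p = 0.553). The other was RAMP2, a partner of the calcitonin receptor-like receptor, at 365 and 369 CPM in FF1 and FF2, against 340, 243 and 340 CPM in RF1, RF2 and RF3 (0.26 ± 0.29). That receptor itself, CALCRL, lay at -0.46 ± 0.49.

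FF2 set several of the lower values. CLDN5, a tight junction protein of endothelium, stood at 59.9 CPM in FF1 and 4.73 CPM in FF2, against 42.6, 79.0 and 36.7 CPM in RF1, RF2 and RF3. FF1 lay among the RF hens and FF2 far below them, and the log2 fold change of -0.67 ± 0.82 became 0.20 without FF2. CD93, a receptor of endothelial adhesion, lay at -1.04 ± 0.53, with 17.2 and 6.54 CPM in FF1 and FF2, against 25.0, 36.4 and 14.0 CPM in RF1, RF2 and RF3. For PROCR, the receptor of the anticoagulant protein C, FF2 was again the lowest hen (-0.38 ± 0.57, and 0.23 without FF2).

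**Figure D2:**
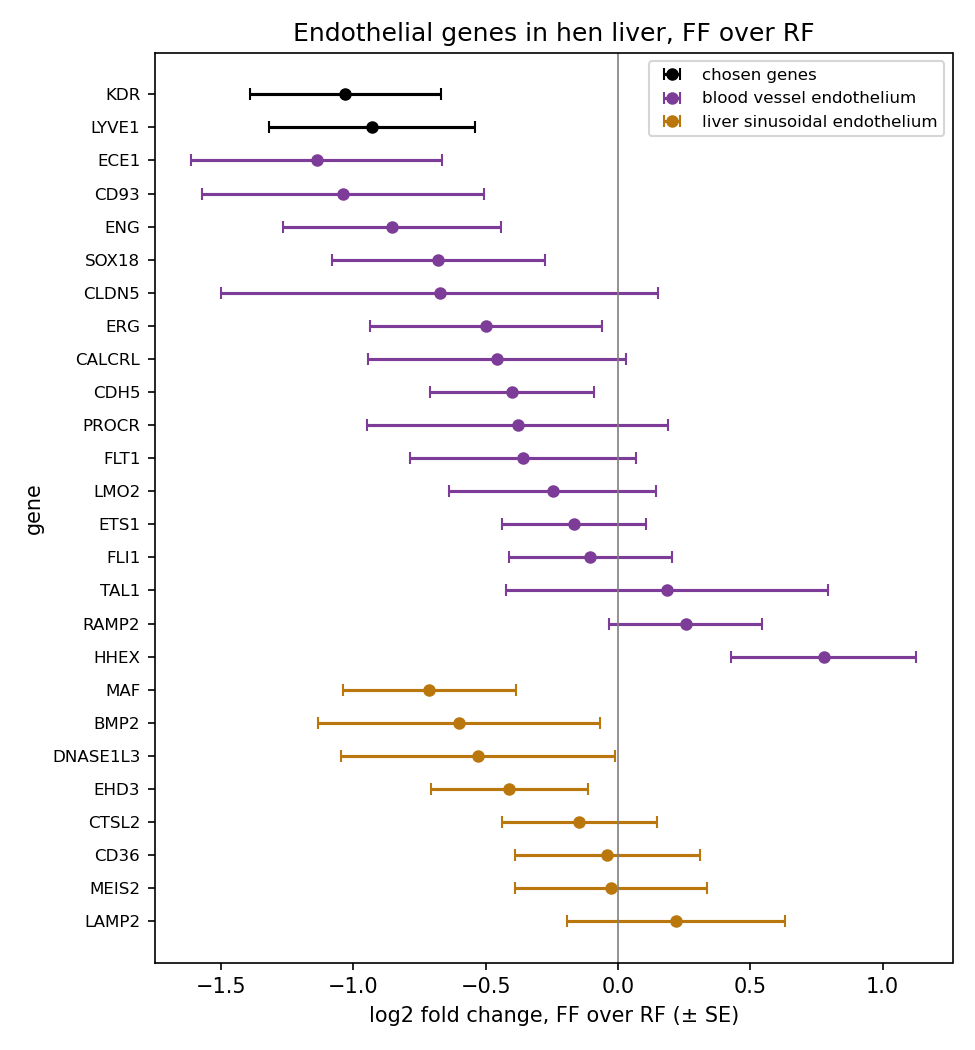
Log2 fold change, FF over RF, with its SE for KDR and LYVE1 (black), the 16 tested blood vessel endothelium genes (purple) and the 8 tested liver sinusoidal endothelium genes (brown). KDR and LYVE1 lie at -1.03 and -0.93, and the medians of the lists are -0.39 and -0.28.

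Genes tied to sinusoidal endothelium lay closer to 0 than LYVE1. Of 28 listed genes 8 were in the table and tested; the scavenger receptors STAB1 and STAB2 and the lectin CLEC4G were not analysed here. Of the 8, 7 had a log2 fold change below 0 with a median of -0.28 (0 called by edgeR, 0 by DESeq2 and 0 at an unadjusted p under 0.05), and the median was -0.13 with a filter of 5 CPM, under which 7 genes were tested. With upper quartile scaling 6 of the 8 lay below 0, and with library totals alone 5. In 3 of the 8 both FF hens lay below all RF hens, where 13.9% of all genes did. MAF, a transcription factor of sinusoidal endothelium that macrophages also express, stood at 20.9 and 19.3 CPM in FF1 and FF2, against 33.7, 42.0 and 23.6 CPM in RF1, RF2 and RF3 (-0.71 ± 0.33, edgeR adjusted p = 0.555). EHD3, a membrane trafficking protein that in mouse marks liver endothelium, stood at 369 and 280 CPM in FF1 and FF2, against 375, 424 and 497 CPM in RF1, RF2 and RF3 (-0.41 ± 0.30). Like LYVE1, it was highest in RF3, and FF1 and RF1 were almost level. BMP2, a ligand by which liver endothelium signals iron status to hepatocytes, lay at -0.60 ± 0.53 on 9 and 6 estimated counts in FF1 and FF2, against 12 in each RF hen. The endonuclease DNASE1L3, which macrophages also make, lay at -0.53 ± 0.52 and changed sign without FF2. CD36, a fatty acid and scavenger receptor, lay at -0.04 ± 0.35, changing sign in 5 of the 12 alternatives (library totals alone, without FF1, RF1 or RF3, and the replicate block). CTSL2, a cathepsin, lay at -0.15 ± 0.29 and changed sign without FF2. MEIS2 lay at -0.03 ± 0.36 and changed sign in 4 of the 12 alternatives. LAMP2, the member above 0, lay at 0.22 ± 0.41 and changed sign without FF2 and without RF2.

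**Figure D3:**
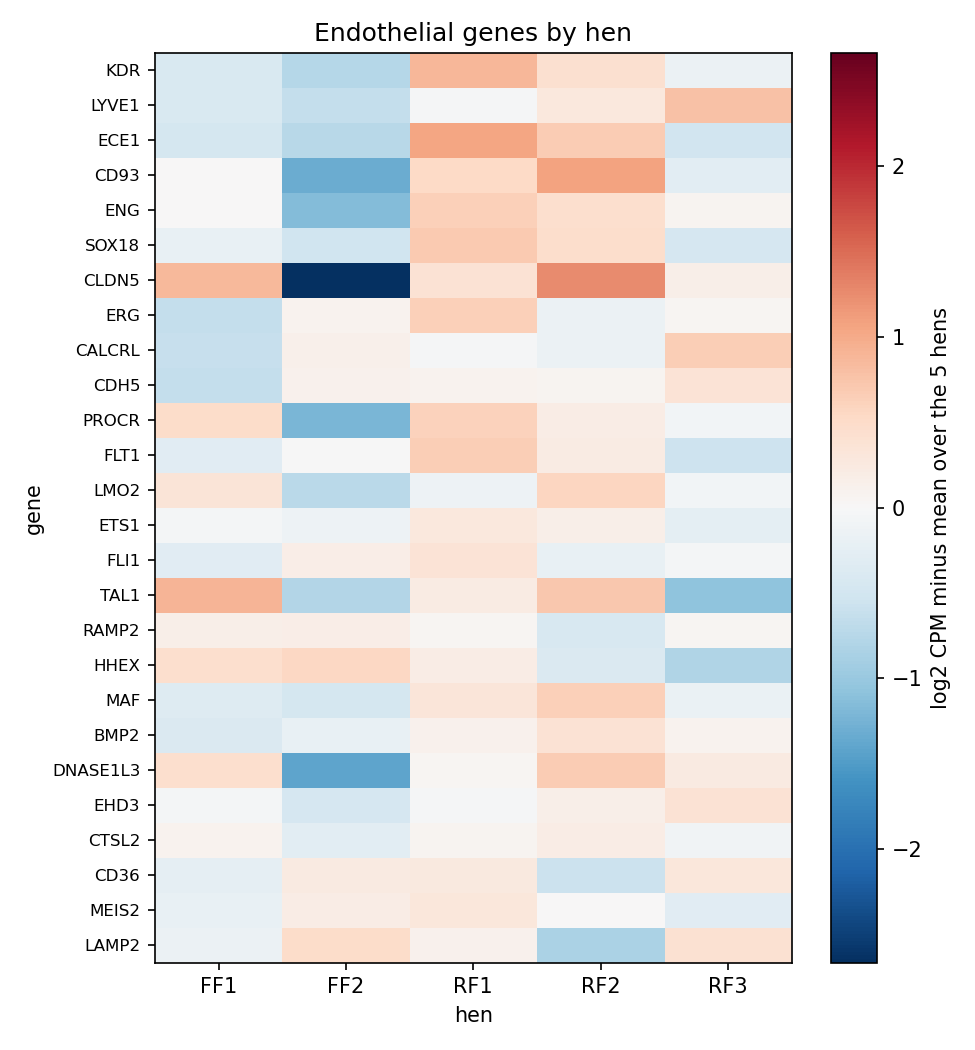
Log2 CPM of KDR, LYVE1 and the 24 other endothelial genes in each hen, minus the gene's mean over the 5 hens; red is above and blue below that mean, and genes are in the order of the fold change plot. KDR runs from -0.76 (FF2) to 0.89 (RF1) and LYVE1 from -0.63 (FF2) to 0.77 (RF3), while CLDN5 is lowest of all in FF2 and CDH5 is lowest in FF1.

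Among receptors for vascular endothelial growth factors, KDR, chosen with its values known, had both FF hens below all RF hens. So did the co-receptor NRP2, a pattern that 13.9% of all genes shared. FLT1, a receptor that binds VEGFA tightly and holds it from KDR, stood at 10.9 and 13.5 CPM in FF1 and FF2, against 21.7, 15.9 and 9.11 CPM in RF1, RF2 and RF3. The groups overlapped, with RF3 the lowest hen (log2 fold change -0.36 ± 0.43, edgeR adjusted p = 0.799). NRP1, a co-receptor that strengthens KDR signalling, stood at 54.4 and 51.6 CPM in FF1 and FF2, against 62.4, 51.1 and 46.3 CPM in RF1, RF2 and RF3, a log2 fold change of -0.01 ± 0.26 whose sign changed in 5 of the 12 alternatives (upper quartile scaling, library totals alone, the filter of 5 CPM in 2 hens, and without FF2 or RF1). NRP2, the co-receptor more used by lymphatic endothelium, stood at 52.1 and 32.4 CPM in FF1 and FF2, against 60.0, 65.2 and 59.1 CPM in RF1, RF2 and RF3 (-0.53 ± 0.29, edgeR adjusted p = 0.595). FLT4, the receptor of lymphatic vessels, was not analysed here.

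The ligand VEGFA, which hepatocytes supply in liver, stood at 92.1 and 128 CPM in FF1 and FF2, against 80.3, 110 and 75.0 CPM in RF1, RF2 and RF3 (log2 fold change 0.31 ± 0.29, edgeR adjusted p = 0.745). The groups overlapped. FIGF, the ligand now named VEGFD, was below the filter, at 1 estimated count in each FF hen and 2 or 3 in the RF hens. Of the oxygen-sensing factors that induce VEGFA, HIF1A and EPAS1 lay at 0.30 ± 0.33 and 0.54 ± 0.52, both changing sign without FF2, and their partner ARNT lay at -0.50 ± 0.28. Among kinases and adaptors that act after KDR, the kinase SRC lay at -0.50 ± 0.32, the focal adhesion proteins PTK2 and PXN at -0.28 ± 0.27 and -0.44 ± 0.28, and the phosphatase PTPN11 at 0.27 ± 0.26. All these act in most cell types. In the whole VEGF signalling list, KDR not included, 13 of 22 tested genes lay below 0, with a median of -0.17. By edgeR or DESeq2 0 were called, and 0 had an unadjusted p under 0.05. That median was -0.08 without FF1, -0.11 without FF2 and -0.04 without RF1. Both FF hens lay below all RF hens in 5 of the 22, where 13.9% of all genes did. They lay above all RF hens in 2, where 13.1% of all genes did.

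Ratios of counts within a hen set KDR against its relatives without any scaling; the pairs were chosen after the values were seen. KDR per FLT1 count was 6.17 and 3.92 in FF1 and FF2, against 7.67, 7.61 and 8.87 in RF1, RF2 and RF3. KDR per NRP1 count was 1.23 and 1.02 in FF1 and FF2, against 2.66, 2.36 and 1.75 in RF1, RF2 and RF3. Both FF hens lay below all RF hens in both ratios. KDR alone had that order and was chosen with its values known, so this is no separate result. The same holds for every ratio with KDR or LYVE1 on top. Set against the junction marker CDH5 the groups overlapped: KDR per CDH5 count was 0.784 and 0.370 in FF1 and FF2, against 1.18, 0.871 and 0.472 in RF1, RF2 and RF3. LYVE1 per CDH5 count was 0.0959 and 0.0485 in FF1 and FF2, against 0.0768, 0.0975 and 0.112 in RF1, RF2 and RF3. The groups also overlapped when either gene was set against ENG or against the macrophage gene MARCO, and when LYVE1 was set against TIMD4, another macrophage gene. LYVE1 per MARCO count, for example, was 0.0125 and 0.0205 in FF1 and FF2, against 0.0233, 0.0142 and 0.0220 in RF1, RF2 and RF3. KDR per VEGFA count was lower in both FF hens than in all RF hens, at 0.728 and 0.412 in FF1 and FF2, against 2.07, 1.09 and 1.08 in RF1, RF2 and RF3. In FF1 both CDH5 and the chosen genes were low, whereas in FF2 CDH5 was level with the RF hens. CDH5 per hepatocyte APOB count was 0.00368 and 0.00393 in FF1 and FF2, against 0.00422, 0.00736 and 0.00528 in RF1, RF2 and RF3. Both FF hens lay below all RF hens in that ratio, though FF2 and RF1 were close. APOB was 1 of 20 tested hepatocyte genes, picked after its values were seen, and the order of the hens depends on that choice. Against the hepatocyte gene TF the groups overlapped. FF2 had slightly more CDH5 than RF1 but less TF, at 34116 CPM in FF2 and 48289 CPM in RF1. APOB alone lay at 0.08 ± 0.39 with the groups overlapping.

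**Figure D4:**
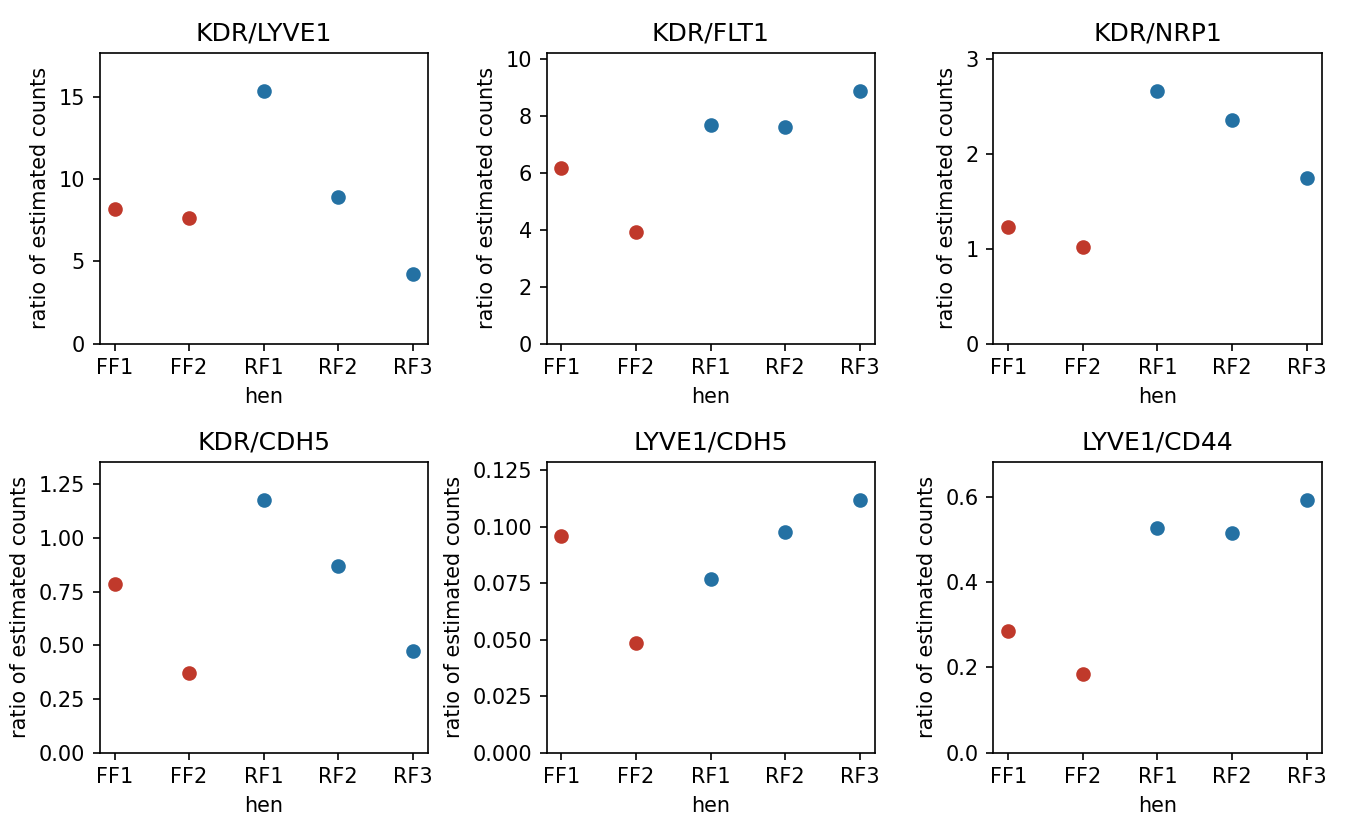
Ratios of estimated counts within each hen (FF red, RF blue; axes start at 0). The FF hens lie below all RF hens for KDR/FLT1, KDR/NRP1 and LYVE1/CD44, as they do for KDR and LYVE1 alone. They lie among the RF hens for KDR/LYVE1. KDR/CDH5 and LYVE1/CDH5 overlap between the groups, with FF1 inside the RF range and FF2 below it.

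Of the genes that make, bind or break down hyaluronan, the ligand of LYVE1, 13 of 35 were in the table and 7 were tested. CD44, the widely expressed hyaluronan receptor of the same protein family as LYVE1, stood at 28.7 and 37.5 CPM in FF1 and FF2, against 20.5, 26.1 and 32.2 CPM in RF1, RF2 and RF3 (log2 fold change 0.33 ± 0.30, edgeR adjusted p = 0.739). It lay on the other side of 0 from LYVE1, and LYVE1 per CD44 count was 0.286 and 0.184 in FF1 and FF2, against 0.529, 0.517 and 0.594 in RF1, RF2 and RF3. UGDH, the enzyme that supplies a sugar precursor of hyaluronan, lay at 0.64 ± 0.33 (edgeR adjusted p = 0.582). HEXA, a lysosomal enzyme that trims its fragments, lay at -0.79 ± 0.39, and GUSB, another, at 0.31 ± 0.34, changing sign without FF2. The synthase HAS2 was below the filter, with 0 to 2 estimated counts per hen. The 7 tested genes had 2 members below 0 and a median of 0.31 (0 called by edgeR or DESeq2, 0 at an unadjusted p under 0.05), which was -0.19 without FF2.

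Since LYVE1 also marks lymphatic vessels in mouse and human, lymphatic genes were set beside it. Of 14 listed, 7 were in the table and 6 tested, with 2 below 0 and a median of 0.10 (0 called by edgeR or DESeq2, 0 at an unadjusted p under 0.05; -0.22 without FF2). PROX1, the defining lymphatic factor, which hepatocytes express too, lay at 0.04 ± 0.28, and NR2F2, of venous and lymphatic endothelium, at 0.16 ± 0.44; both changed sign without FF2, and PROX1 also without RF2 or RF3. ITGA9, an integrin of lymphatic valves, lay at 0.22 ± 0.35. It was the 1 of 6 with both FF hens above all RF hens, where 13.1% of all genes did. FOXC2, which builds those valves, was listed at 0 in all hens. Of the angiopoietin and Notch genes of vessels 8 were tested, with 3 below 0 and a median of 0.05. That median changed sign without FF1, FF2 or RF3. None was called by edgeR or DESeq2, and 1 of 8 had an unadjusted edgeR p under 0.05, where 9.35% of all genes did. ANGPT2, which loosens vessels, lay at 0.30 ± 0.51, the Notch receptor NOTCH2 at -0.37 ± 0.27 and the Notch ligand DLL1 at -0.46 ± 0.28.

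Markers of other liver cells also differed between hens, and their part in the levels of KDR and LYVE1 was not tested. Macrophage and Kupffer cell genes, some of which may share cells with LYVE1, lay below 0 in 11 of 15 tested members, with a median log2 fold change of -0.33 (0 called by edgeR or DESeq2, 0 at an unadjusted p under 0.05). The median was -0.20, -0.18 and -0.17 without FF1, FF2 and RF3. Their summed level was 3902 and 2206 CPM in FF1 and FF2, against 3372, 4843 and 4504 CPM in RF1, RF2 and RF3. Averaged over members, the list was highest in RF3 (0.31 log2 units above the average hen) and lowest in FF2 (-0.31). LYVE1 had the same highest and lowest hens, but so did the bile duct list (0.21 in RF3 and -0.58 in FF2). The match was thus not particular to macrophage genes. MARCO, a scavenger receptor of macrophages, lay at -0.62 ± 0.44. TIMD4, which in mouse marks resident Kupffer cells, lay at -0.06 ± 0.34 and changed sign in 4 of the 12 alternatives (library totals alone, without FF1 or RF3, and the replicate block), and HMOX1, the haem-degrading enzyme with the smallest p of the list, at -0.59 ± 0.29 (edgeR adjusted p = 0.574). PTPRC, a phosphatase of white blood cells, lay at 0.65 ± 0.33.

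Stellate cell and fibroblast genes lay the other way, above 0 in 15 of 18 tested members, with a median of 0.34 and summed levels of 2636 and 1477 CPM in FF1 and FF2, against 1864, 1976 and 1390 CPM in RF1, RF2 and RF3. Their median was 0.07 without FF1, when 8 of 18 lay below 0, and 0.65, 0.50 and 0.14 without FF2, RF2 and RF3. FBLN1, a matrix protein, was the 1 member of 18 with an unadjusted edgeR p under 0.05, where 9.35% of all genes had one (0 called by edgeR or DESeq2). It stood at 72.8 and 76.0 CPM in FF1 and FF2, against 202, 127 and 156 CPM in RF1, RF2 and RF3 (-1.12 ± 0.30, edgeR adjusted p = 0.329), 1 of 3 members below 0. LUM, a collagen-binding proteoglycan, lay at 1.28 ± 0.55. Hepatocyte genes summed to 224531 and 222786 CPM in FF1 and FF2, against 280951, 202153 and 238167 CPM in RF1, RF2 and RF3. Of 20 tested, 12 lay below 0 with a median of -0.14 (0.0034 without FF1). The smallest p values were those of the retinol carrier RBP4 (-1.30 ± 0.44) and the apolipoprotein APOA1 (1.20 ± 0.43). None was called by edgeR or DESeq2, and 3 of 20 had an unadjusted edgeR p under 0.05, where 9.35% of all genes did. ALB, C3, CEBPA, VTG2 and APOV1 were listed at 0 in all hens, although liver normally expresses them, so a listed 0 was not read as absence.

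Bile duct genes had 4 of 8 tested members below 0 and a median of -0.17. By edgeR 0 were called, and 2 of 8 had an unadjusted p under 0.05, where 9.35% of all genes did. The median was -0.89 without FF1, 0.07 without FF2, -0.27 without RF1 and -0.06 without RF2. DESeq2 called 1 of 8, where it called 1.83% of all genes. That gene was SCTR, the secretin receptor, which stood at 12.5 and 11.3 CPM in FF1 and FF2, against 71.3, 96.3 and 51.2 CPM in RF1, RF2 and RF3 (-2.61 ± 0.37, DESeq2 adjusted p = 2.64e-07, edgeR adjusted p = 0.0940). CD24, a surface glycoprotein, lay at 1.09 ± 0.40. The list's summed level was lowest in FF2, at 431 and 217 CPM in FF1 and FF2, against 493, 583 and 466 CPM in RF1, RF2 and RF3. Red cell genes, a measure of blood left in the tissue, summed to 3654 and 3655 CPM in FF1 and FF2, against 2753, 4198 and 1112 CPM in RF1, RF2 and RF3, with 4 of 4 tested members above 0 and a median of 0.42 (TFRC, which takes up iron, at 0.47 ± 0.32 and the globin HBAA at 0.53 ± 0.52). The median was 0.08 without RF3, when 1 of the 4 lay below 0, 0.87 without RF2 and 0.10 with the replicate block. RF3, the hen with least KDR among the RF hens and most LYVE1, was thus the hen with least red cell RNA. Lymphocyte, heterophil and thrombocyte genes had 7 of 16 tested members below 0 and a median of 0.16 (the T cell gene CD247 at 1.02 ± 0.49 and the granulocyte receptor CSF3R at -1.09 ± 0.54). That median was 0.28 without FF1, -0.13 without FF2, -0.08 without RF1 and 0.38 without RF2. In both blood lists 0 genes were called by edgeR or DESeq2, and 0 had an unadjusted p under 0.05.

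**Figure D5:**
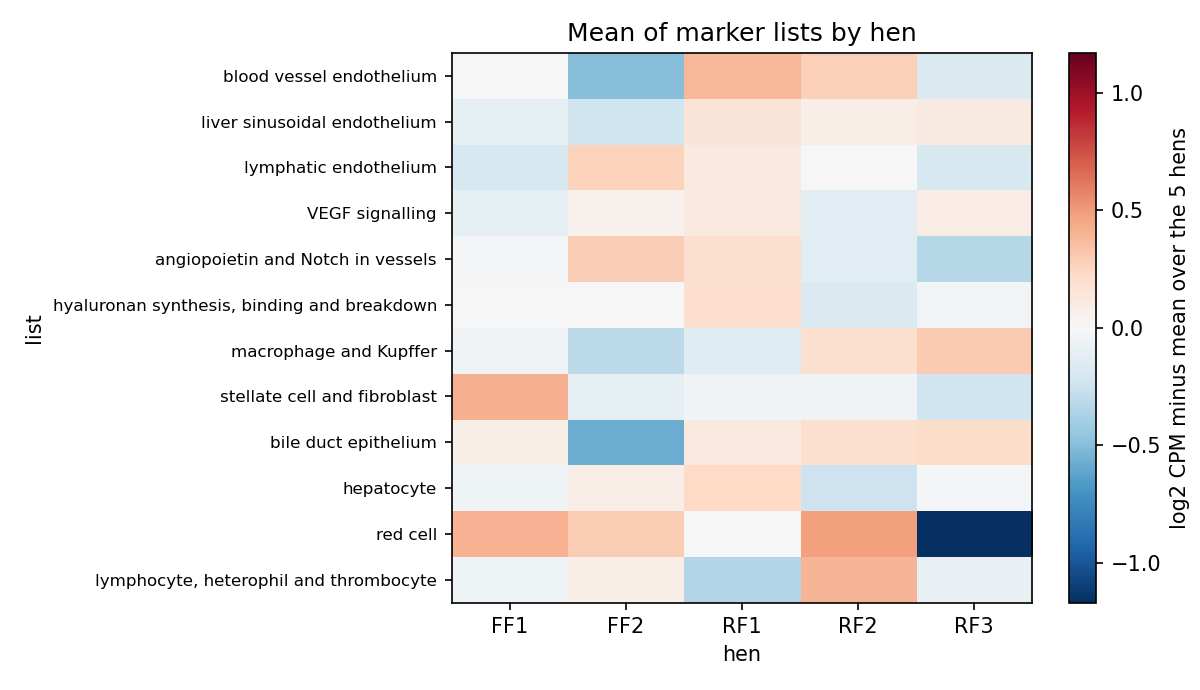
Mean over the tested members of each marker list, in log2 CPM minus each gene's mean over the 5 hens, by hen; KDR and LYVE1 are in none of the lists. Blood vessel endothelium is lowest in FF2 (-0.50) and highest in RF1 (0.39), with RF3 (-0.17) below FF1 (0.0022). Macrophage and bile duct genes are highest in RF3 (0.31 and 0.21), and red cell genes are lowest in RF3 (-1.17).

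Likeness of profile was measured over the 5 hens as the root mean square distance between centred log2 CPM, among 4293 genes whose log2 CPM averaged 1 or more. The 5 genes nearest to KDR were SPRY1, FRZB, ST8SIA5, RND2 and USP4, at distances of 0.11, 0.12, 0.13, 0.13 and 0.14. SPRY1, an inhibitor of receptor tyrosine kinase signalling, stood at 11.1 and 10.2 CPM in FF1 and FF2, against 28.5, 24.4 and 14.3 CPM in RF1, RF2 and RF3. FRZB, a secreted Wnt antagonist, stood at 90.9 and 75.6 CPM in FF1 and FF2, against 191, 175 and 113 CPM in RF1, RF2 and RF3. Both were highest in RF1 and lowest in FF2, as KDR was. Nearest to LYVE1 were HPGD, MEF2D, IL4I1, RHOBTB1 and STK17A, at distances of 0.12, 0.14, 0.15, 0.15 and 0.16. HPGD, which inactivates prostaglandins, stood at 77.1 and 55.6 CPM in FF1 and FF2, against 103, 108 and 178 CPM in RF1, RF2 and RF3, highest in RF3 and lowest in FF2, as LYVE1 was. None of these 10 genes was in an endothelial list, and close profiles among so many genes over 5 hens say nothing of shared function.

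In the GRCg7b annotation, used only for the order of genes, no other gene overlapped KDR or LYVE1. Neighbours were named by their place, a choice made after the values were seen. KDR lies in a row of receptor tyrosine kinase genes with KIT, the receptor of stem cell factor, and PDGFRA, a receptor of mesenchymal cells. KIT had 3 and 7 estimated counts in FF1 and FF2, against 10, 2 and 1 in RF1, RF2 and RF3, and PDGFRA had 9 and 1 in FF1 and FF2, against 8, 4 and 7 in RF1, RF2 and RF3. Both were below the filter and had the groups overlapping. On the other side of KDR the nearest tested gene was CLOCK, of the circadian clock, at a log2 fold change of 0.49 ± 0.39. The nearest tested neighbours of LYVE1 were the ubiquitin ligase RNF141 on one side and the translation factor EIF4G2 on the other. They lay at 0.02 ± 0.26 and 0.09 ± 0.31, so neither lay as LYVE1 did. Past RNF141, AMPD3 lay at -0.60 ± 0.57, on 5 to 12 estimated counts per hen, and SBF2 at 0.03 ± 0.29. In AMPD3 both FF hens lay below all RF hens, where 13.9% of all genes did.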

How the data were processed

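The authors deposited estimated counts for each gene symbol, 1 column per hen, matched here by the hen number in the header. The submitters' processing notes name FastQC, TopHat2 2.0.13, Cuffdiff 2.2.1, edgeR and build galGal4 without a role or order, and no source used here gives the annotation or strand setting. Of 6286 entries 51 were not whole and were rounded. Genes passing filterByExpr (minimum count 10), 4309 in all, were scaled by TMM and tested FF over RF with edgeR 4.0.16 (glmQLFit, glmQLFTest, two-sided, Benjamini-Hochberg over all genes, threshold 0.05) in R 4.3.3; DESeq2 1.42.0 was an alternative. An SE is the log2 fold change divided by the square root of the quasi-likelihood F. The steps were tested on simulated data.

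KDR, LYVE1, the 12 gene lists (170 of 318 genes in the table) and the alternatives were chosen with earlier results of these data known. Named were KDR and LYVE1, up to 12 markers, receptors, ligands or enzymes of each endothelial, VEGF, angiopoietin and hyaluronan list, the 2 smallest p of every list, and the 5 nearest profiles. BUB1, AACS, TAL1, CD93, PROCR, LAMP2, MEIS2, HIF1A, EPAS1, MARCO, TIMD4, APOB and neighbouring genes were added after their values were seen. A gene that fell under these rules is not reported here. Symbols or synonyms of RefSeq (GRCg7b) matched 6107 entries.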

Additional observations from a re-analysis of the deposited data

How the results depend on the processing

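KDR and LYVE1 kept a negative log2 fold change under all 12 alternatives, which moved neither by more than the spread between hens of a group (KDR from -1.25 to -0.74, LYVE1 from -1.10 to -0.67). Both genes were chosen with their values known, and both FF hens lay below all RF hens in each. Leaving out 1 hen or using the replicate block could therefore hardly change the sign, so the kept sign is no separate result. The median of the blood vessel endothelium list stayed between -0.55 and -0.28. That of the sinusoidal list was -0.18 with library totals alone and -0.13 with the filter of 5 CPM in 2 hens, and -0.42 to -0.21 over the fits without 1 hen. The number of its members below 0 ranged from 5 to 8, and that of the blood vessel list from 10 to 14, counts added after the data were seen. Library totals alone moved the median of all genes from 0.01 to 0.11.

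The number of genes called, 2 by the edgeR quasi-likelihood test, was 6 with no filter, 1 with 5 CPM in 2 hens, 79 by DESeq2, and 0 to 8 without 1 hen (6 without FF1, 0 without FF2, RF1 or RF2, and 8 without RF3). It was 6 with the replicate number as a block, which gave KDR -1.25 and LYVE1 -0.67 and in which RF3, having no partner, does not inform the fold change. Hens of the same number did not deviate together from their group means (r = -0.14 and -0.36 across genes). With 2 FF hens these deviations mirror each other, so the values cannot decide whether the number marks a pairing. The cause of these shifts was not tested. LYVE1 had 19 to 82 counts per hen and KDR 145 to 706, so counting error is wider for LYVE1.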
